A study of Mus musculus with 2 samples.

Results

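The bins described here are those with the highest summed level of Fezf2, Etv1 and Deptor, markers of cortical layer 5, in 2 coronal mouse brain sections. They are named by this rule, since not all of them lay in the cortex and other layer 5 genes were not higher in every patch of them. There were 1531 among 42558 scored bins 3 days after controlled cortical impact (CCI) and 1092 among 27213 scored bins 28 days after it.

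Layer 5 of the cerebral cortex holds the large pyramidal neurons that send the cortical output to the brainstem, spinal cord, thalamus and striatum. Fezf2 is a transcription factor that specifies the subcortically projecting cells of the layer, Etv1 is a transcription factor found in many layer 5 neurons and Deptor is an inhibitor of mTOR signalling used as a marker of the layer. In CCI a piston strikes the exposed cortex and destroys the tissue beneath it. The long axons of layer 5 make the cells near such a lesion a population of interest in traumatic brain injury (TBI).

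The sections were profiled with Visium HD, in which probes against 19070 genes are captured on a grid and counted by unique molecular identifiers (UMIs, 1 per captured probe molecule). Both mice were male C57Bl6 animals, 3 months old, with CCI of the right parietal lobe and no further treatment, and they were analysed 3 days or 28 days after the injury. No sham section was analysed here, so the control is the opposite side of the same section, with the lower columns of the grid taken as the injured side. Each time point is 1 section of 1 animal, hence animal-to-animal spread is unknown and no difference could be tested. All intervals below are exact 95% intervals that cover counting error only.

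Bins of 16 µm were kept where they held at least 100 UMIs, which left 119617 of 121967 bins at 3 days and 103316 of 105589 bins at 28 days. The sections held 120615873 and 82422389 UMIs, with a median of 836 and 596 per bin. A bin was scored where the block of 5 by 5 bins around it held at least 10 UMIs of Slc17a7, the vesicular glutamate transporter of cortical excitatory neurons. The score was the share of the block's UMIs that came from Fezf2, Etv1 and Deptor. Members were the bins at or above the 96th percentile of the scored bins on the opposite side, so the share of members on that side was set by the rule. A bin can hold parts of several cells, neighbouring blocks overlap, and fewer layer 5 cells cannot be told apart from less layer 5 RNA per cell.

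Levels and scores are given as CPM, the UMIs of a gene or gene list per 1000000 UMIs of the bins summed. The threshold was a score of 564 CPM at 3 days and 625 CPM at 28 days. The lowest member of the opposite side scored 563.8 at 3 days, against 563.7 for the highest bin left out. In the 28-day section the same values were 624.8 and 624.3. The edge was therefore densely filled, with 557 opposite-side members within 10% above the threshold at 3 days and 723 bins within 10% below it. On the injured side 26 of the 38 members at 3 days lay within 10% above the threshold and 60 further bins within 10% below it, so the 3-day comparison of the sides rests on bins at this edge. At 28 days 166 of the 471 injured-side members lay as close above it.

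On the injured side, 38 of 5249 scored bins were members at 3 days, a share of 0.724% (0.513 to 0.992). The opposite side had 1493 of 37309, or 4.0%. At 28 days the injured side had 471 of 11706, a share of 4.02% (3.67 to 4.40), beside 621 of 15507 on the opposite side. Both intervals treat bins as independent, although neighbouring bins share most of their block, and are therefore too narrow. The sections did not show the same tissue on both sides. Kept bins reached 2.10 mm from the midline boundary on the injured side and 4.61 mm on the opposite side at 3 days, and 3.86 mm and 2.85 mm at 28 days. The shortage at 3 days also turned on the score genes, since selection on Fezf2 alone gave 169 injured-side members against 1493 on the opposite side, a log2 ratio of shares of -0.31. The near-equal shares at 28 days also varied with the rule, with log2 ratios of -1.24 on Fezf2 alone and 0.38 with blocks of 3 by 3 bins.

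The members fell into 5 separate patches, outlined by hand after the map of members had been seen. A band in the dorsal cortex ran beside the midline (medial dorsal) and on towards the side of the brain (lateral dorsal). The others were a strip at the ventrolateral rim of the cortex, a cluster deep in the ventral part of the hemisphere and a group at each side of the midline below the hippocampus. In the 3-day section the opposite side held 330 medial dorsal, 420 lateral dorsal, 171 rim, 546 deep ventral and 26 midline members, and all 38 injured-side members were medial dorsal. At 28 days the opposite side had 358 medial dorsal, 182 lateral dorsal and 81 midline members. The injured side then had 82 medial dorsal, 179 rim, 115 deep ventral and 95 midline members. No member of the lateral dorsal patch was found on the injured side of either section.

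**Figure D1:**
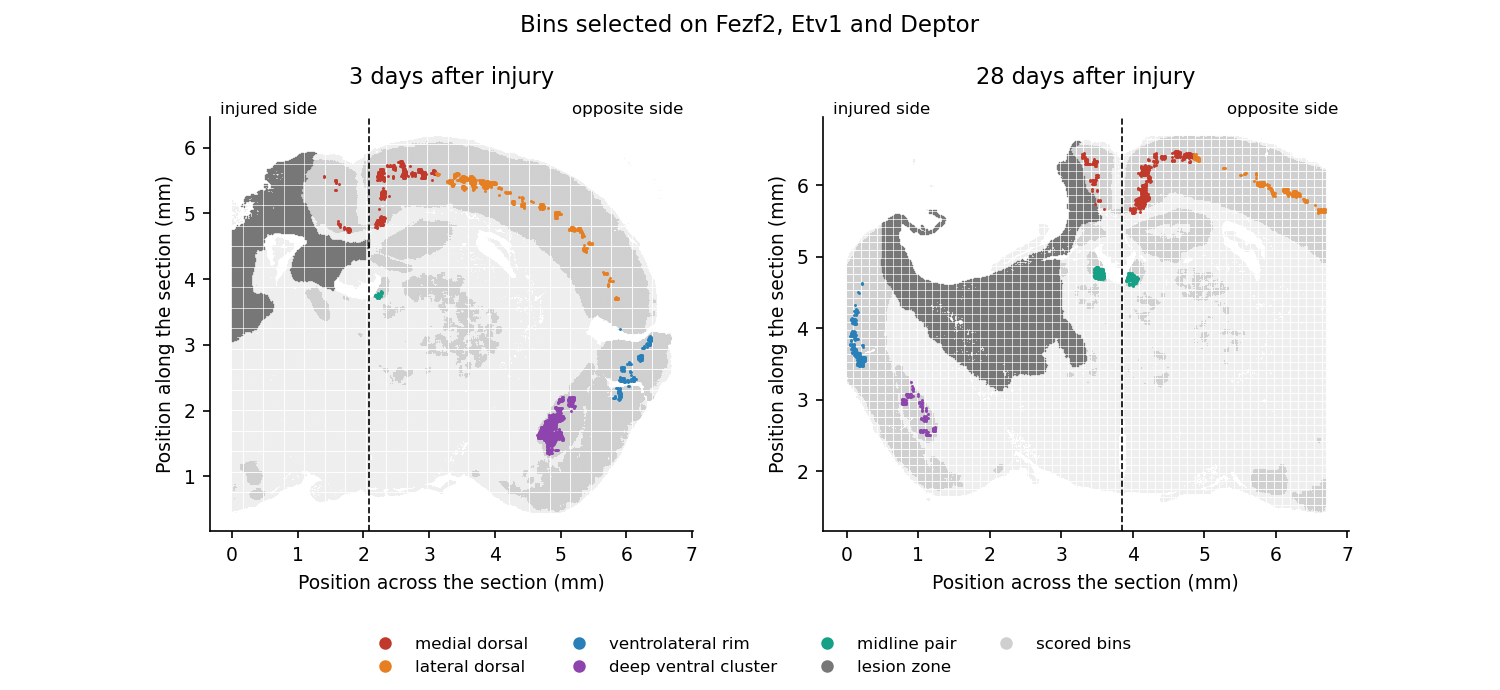
Positions of the members in the 2 sections, in mm across and along each section, coloured by patch over kept bins (palest grey), scored bins (light grey) and the lesion zone (dark grey, bins rich in 6 phagocyte genes). The dashed line is the boundary between the injured and the opposite side. The band of dorsal members on the opposite side has only its medial end on the injured side, with 38 bins at 3 days and 82 at 28 days.

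The patches entered through different genes. In the medial dorsal patch of the opposite side, Fezf2 stood at 209 CPM and Etv1 at 395 at 3 days, and at 130 and 566 at 28 days. The lateral dorsal patch had Fezf2 at 255 CPM at 3 days and 183 CPM at 28 days. Deptor stood at 60.2 and 112 CPM in the medial and lateral patches at 3 days, and at 50.5 and 68.3 CPM at 28 days. The bins were selected on these genes, so their levels only describe the selection. The deep ventral cluster had Etv1 at 615 and Fezf2 at 93.9 at 3 days. The midline groups had 0 Fezf2 UMIs in both sections, which allows up to 50.1 CPM in the 26 bins at 3 days and up to 18.5 and 22.2 CPM on the injured and the opposite side at 28 days, and were selected on Etv1, at 651 CPM at 3 days and at 826 and 903 on the injured and the opposite side at 28 days.

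**Figure D2:**
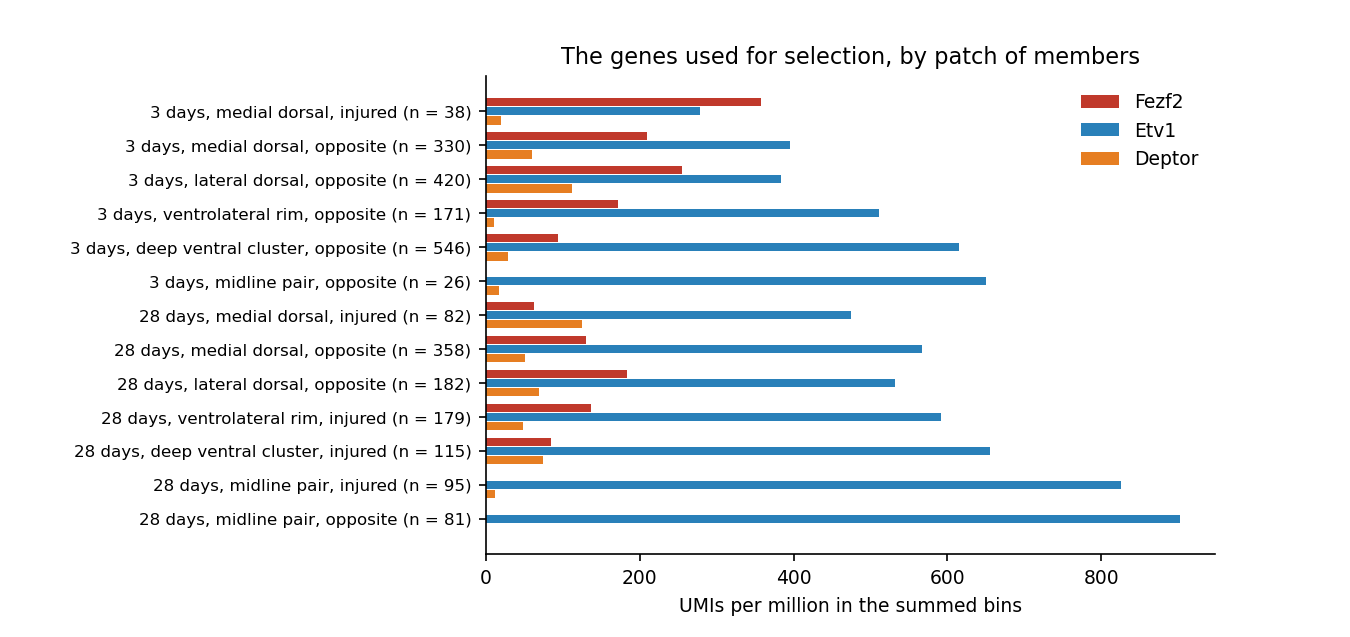
Levels of the 3 genes used for selection, in CPM of the summed bins, for each patch, section and side with members (n, number of bins). Fezf2 is present in the dorsal bands and at 0 in the midline groups, where Etv1 is highest.

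Genes outside the rule also differed between the patches. On the opposite side at 28 days the midline group was led by Nppa, Syt15, Gpr151, Chrna3, Chat and Chrnb4, and at 3 days by Chrnb4, Gpr151, Chat and Htr5b. Gpr151, Chat and the nicotinic receptor subunits Chrna3 and Chrnb4 are known from the medial habenula, and the interneuron list had at most 3 UMIs in any of these midline groups. At 3 days the deep ventral cluster was led by Ptprc, known as the leukocyte antigen CD45, with 90 UMIs. Microglia and macrophage genes in the cluster were at 275 CPM, below the 432 CPM of scored opposite-side bins that were not members. Rxrg, a retinoid receptor, had 116 UMIs there and Cyp26b1, which clears retinoic acid, had 513. Cyp26b1 also led the cluster at 28 days. The rim was led by Myl4 and Tox at 3 days and by Ccn3 and Scube1 at 28 days. The summed list of 21 further layer 5 genes did not set the dorsal band apart. On the opposite side at 3 days it was at 1827 CPM in the medial dorsal patch, 2645 in the lateral dorsal patch, 2994 in the rim, 1952 in the deep ventral cluster and 3354 in the midline group, with 1785 in scored bins that were not members. At 28 days it was at 1785 CPM medially and 3597 laterally, with 4906 in the midline group and 2131 in non-members, and the rim and the midline group of the injured side had 3079 and 4438. Much of the sum in the dorsal band came from Pcp4, which is in the list. On the opposite side Pcp4 gave 367 of 759 list UMIs medially and 950 of 1297 laterally at 3 days. At 28 days it gave 381 of 813 and 773 of 1001. For these reasons the patches are named by their position and leading genes.

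Members of the lateral dorsal patch had the position of layer 5 relative to its neighbours. They were found between bins chosen in the same way on genes of the upper layers (Cux2, Rasgrf2, Otof) and of layer 6 (Foxp2, Syt6, Tle4). In the lateral dorsal patch of the opposite side at 3 days, the median distance below the tissue surface was 195 µm for 1457 upper-layer bins, 601 µm for 420 members and 941 µm for 985 layer 6 bins. From the 10th to the 90th percentile, members spanned 541 to 701 µm and layer 6 bins 820 to 1096 µm. The 28-day medians were 160, 544 and 930 µm over 562, 182 and 263 bins, and the members spanned 473 to 653 µm.

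**Figure D3:**
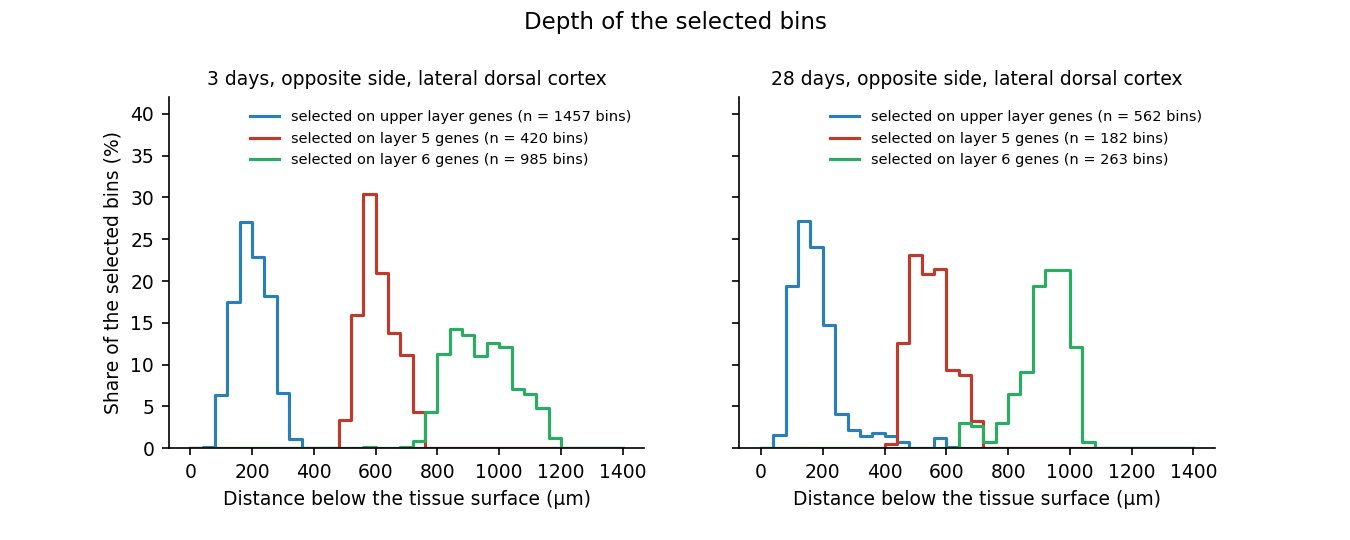
Share of selected bins (%) by distance below the tissue surface (µm, steps of 40 µm) in the lateral dorsal cortex of the opposite side, for bins selected on upper-layer, layer 5 or layer 6 genes. The members centre on 601 µm at 3 days and 544 µm at 28 days, between the bins of the other layers.

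The 750 dorsal members of the opposite side at 3 days and the 540 at 28 days carried other genes of layer 5. Because bins were selected on their own counts, these levels are a description. Of 21 further layer 5 genes, 11 had at least 200 UMIs over members and other dorsal bins, and all 11 were higher in members than in other scored dorsal bins in both sections, beside 49.8% of 10442 genes at 3 days and 49.6% of 9333 at 28 days. Of the 11, 5 passed a log2 ratio of 1 in each section, which 0.747% and 0.439% of all genes did. Tshz2, a zinc finger gene, was at 155 CPM in members and 43.4 in other bins at 3 days, and at 222 and 62.5 at 28 days. Parm1, a membrane glycoprotein gene, was at 148 and 40.7 at 3 days and at 158 and 48.6 at 28 days. Pcp4, a calmodulin regulator, was at 1454 and 810 at 3 days and at 1573 and 1189 at 28 days. The medial members alone had Pcp4 at 837 CPM at 28 days, below the 1189 of other dorsal bins. The summed list was 2270 CPM in members and 1138 in other bins at 3 days, and 2472 and 1590 at 28 days.

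The genes with the highest ratio of members over other scored dorsal bins were led by Tox at 3 days, with a log2 ratio of 1.99, followed by Trmt9b, Parm1, Tshz2, Tcerg1l, Il1rapl2, Vgll3, Npr3, Tmem91 and Dleu7. At 28 days Tshz2 led with 1.83, and Vat1l, Parm1, Klhdc8a, Tmem150c, Lypd1, Tox, Trmt9b and Ntng1 were also among the highest. Vat1l is known from layer 5 projection neurons. All of these genes had ratios above 0 in the other section as well, the lowest being 0.77.

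Neurofilament genes, which are abundant in large projection neurons, were also higher in the band. Of 10 neurofilament and cytoskeleton genes, all but Mapt were above 0 in both sections, although 1, Nefh, passed a ratio of 1 in each. Nefh, the heavy neurofilament subunit of thick axons, was at 221 CPM in members and 80.6 in other bins at 3 days, and at 255 and 111 at 28 days. Of 15 ion channel genes, 9 were above 0 in each section and the other 6 were not. Scn4b, a sodium channel subunit, was at 201 and 104 at 3 days and at 312 and 134 at 28 days. Of the 6 upper-layer genes, Cux2 was at 19.9 in members and 103 in other bins at 3 days, and at 13.6 and 80.7 at 28 days. Immediate early genes, which neurons switch on with activity, were lower in members, at 1249 against 1649 at 3 days and at 924 against 1340 at 28 days.

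The band also varied along the cortex. On the opposite side, 3807 genes had at least 50 UMIs in the medial and lateral dorsal patches of both sections, and 5 of them passed a log2 ratio of 1 in the same direction in both. Tshz2 was at 250 CPM medially and 73.4 laterally at 3 days, and at 305 and 86.2 at 28 days. Cbln2, a secreted synapse organizer, was at 118 and 48.9 at 3 days and at 173 and 39.5 at 28 days, and Nrep was at 118 and 40.8, then at 165 and 28.7. The reverse was seen for Pcp4, at 883 medially and 1937 laterally at 3 days and at 837 and 2778 at 28 days. Myl4, a myosin light chain, was at 40.9 and 106 at 3 days and at 48.3 and 122 at 28 days. In a single section, 16 genes passed that ratio at 3 days and 56 at 28 days. For this reason the sides are compared below within a single stretch of the band as well.

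Over all members, the sides held different patches, and the gene ratios cannot be told apart from that mix. With at least 20 UMIs over both sides, 17.2% of 9932 genes were higher on the injured side by a log2 ratio of 1 or more at 3 days and 11.5% were lower. Of 12 layer 5 genes that passed this minimum, 3 were higher and 5 lower by that ratio, with a median log2 ratio of 0.15, the same as over all genes, although their sum stood at -0.58 (-0.94 to -0.26). At 28 days 2.49% of 9463 genes were higher and 2.47% lower, and of 13 layer 5 genes 0 were higher and 2 lower, with a median of -0.55 beside 0.00 over all genes and a sum of 0.04 (-0.05 to 0.13). The 3-day counts rested on few injured-side UMIs, and the 1706 higher and 1143 lower genes became 117 and 159 against opposite-side members near the mirrored position of the injured-side ones, while a pseudocount of 1 left 387 lower. The splits moved with the scaling: with trimmed mean of M-values (TMM) factors, the 3-day median over all genes moved by -0.23 and 42.9% of the genes past the ratio were higher in place of 59.9%. With UMIs per bin the 28-day median moved by -0.14 and 29.8% were higher in place of 50.2%. The injured side rested on 50349 UMIs at 3 days and 596580 at 28 days, against 2014825 and 868881 on the opposite side.

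Among genes with at least 200 UMIs, the 10 highest on the injured side at 3 days were Apod, Gfap, Trf, Tshz2, Prex1, Rora, Arhgap1, Scn4b, Arc and S100a16. The 10 lowest were Cyp26b1, Atp2b4, Kcnk9, Slc24a3, Rrn3, Ccsap, Herc2, Nr2f2, Cpt1c and Bmp3, each with 0 UMIs in the 38 injured-side bins. Cyp26b1 was among the leading genes of the deep ventral cluster, of which that side had no member at 3 days. In the 28-day section the highest were Nptxr, Synpr, Gfra1, Scube1, Sst, Syn2, Tac2, Cpne4, Ak5 and Nwd2. Among the lowest were Scn4b, Kcnab3, Vamp1, Zbtb16, Cds1, Lamp5, Hapln4, Pvalb and Coro6. Scube1 was among the leading genes of the rim, which had members on the injured side only at 28 days, and Scn4b among those of the lateral dorsal patch, which had none there.

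Distance from the midline gave few matched bands. At 3 days the nearest 500 µm held 28 injured-side and 233 opposite-side members and no band had 50 on both sides. In the later section the nearest 500 µm held 157 and 351, and the sum of immediate early genes there had a log2 ratio of -1.05, but this band took in the midline groups. By distance from the lesion zone, 81 injured-side members at 28 days lay within 250 µm and 320 at 500 to 1000 µm. Against all opposite-side members, reactive astrocyte genes had log2 ratios of 1.71 in the nearer set and 1.08 in the farther, and immediate early genes -0.44 and -0.67. The nearer set was medial dorsal and the farther set was not, so distance and region cannot be told apart.

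The medial dorsal patch was the one part of the dorsal band with members on both sides of both sections. It was chosen for the side comparison after the map had been seen. At 3 days, 38 injured-side bins with 50349 UMIs were set against 330 opposite-side bins with 415430 UMIs, and at 28 days 82 bins with 111695 UMIs against 358 with 455442. The median bin held 1236 UMIs on the injured side and 1206.5 on the opposite side at 3 days, with 1305 and 1217 in the 28-day section. The injured-side bins lay 152 to 505 µm from the lesion zone at 3 days and 0 to 229 µm at 28 days. Their place in the band was not the same, since the median distance below the surface was 983 µm on the injured side against 524 µm at 3 days, with 318 against 566 µm in the 28-day section. The 3-day injured-side median fell within the range of the layer 6 bins of the lateral cortex, and layer 6 genes in these members were at 238 CPM, with 166 CPM on the opposite side (log2 ratio 0.57, interval -0.50 to 1.42). The 28-day injured-side median lay nearer the surface than the 473 to 653 µm spanned by the lateral members, and layer 4 genes were at 251 CPM there, with 72.5 CPM on the opposite side. By depth, neither injured-side set matched layer 5 as placed in the lateral cortex, and both are called members of the rule below. Values are therefore also given against opposite-side members within 10 bins of the mirrored position (103 bins at 3 days, 288 at 28 days). There, layer 6 genes at 3 days had a log2 ratio of -0.0008 (-1.13 to 0.97) and layer 4 genes at 28 days 1.42 (0.63 to 2.20). Another set used a lower threshold, the 96th percentile over all kept bins of the opposite side, which gave 179 against 700 bins at 3 days and 335 against 807 at 28 days.

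Across the genes with at least 20 UMIs in the medial dorsal members, 7.36% of 5706 were higher on the injured side by a log2 ratio of 1 or more at 3 days and 9.04% were lower. The 28-day shares were 3.85% and 4.99% of 6335. The lower threshold gave 3.33% and 2.98% in the 3-day section, with 2.24% and 2.58% in the later one. Another scaling moved these splits. With TMM factors the median log2 ratio over all genes at 3 days moved by -0.17, and 24.8% of the genes past the ratio were higher in place of 44.9%. With UMIs per bin the 28-day median moved by 0.10, and 57.9% were higher in place of 43.6%. These shares are the background against which the lists below are read. The share of all genes above or below 0 was not counted, so counts of list genes by sign have no such background. The median log2 ratio over all genes was 0.06 at 3 days and 0.04 at 28 days.

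Immediate early genes differed between the sides in opposite directions in the 2 sections. Their sum in the injured-side members at 3 days was 85 UMIs, or 1688 CPM, against 1129 on the opposite side, which is 0.59 on the log2 scale (0.23 to 0.92). At 28 days the list had 66 UMIs, or 591 CPM, against 966, which is -0.70 (-1.11 to -0.33). Both directions were seen at the mirrored position, with 0.67 (0.26 to 1.07) and -0.40 (-0.82 to -0.02), and at the lower threshold, with 0.59 (0.44 to 0.75) and -0.56 (-0.76 to -0.37). Of the 14 genes listed, 6 had at least 20 UMIs in each section. At 3 days 3 of the 6 were above 0 and 3 below, 2 were higher by a log2 ratio of 1 or more, and the median was 0.19 beside 0.06 over all genes. The interval ends of the 2 genes in the middle averaged -0.87 and 1.01. At 28 days 0 were higher and 0 lower by that ratio, and all 6 were below 0. The median was -0.67 beside 0.04 over all genes, and the interval ends of the 2 genes in the middle averaged -1.79 and 0.20. Such averages are not an interval of the median, and none is given for it.

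Npas4, an activity-dependent transcription factor of neurons, had fewer than 20 UMIs in the medial dorsal members of each section, below the minimum used for the counts above. It had 11 UMIs in the 38 injured-side bins at 3 days, or 218 CPM, and 8 in the 330 opposite-side bins, or 19.3 CPM. At 28 days it had 0 UMIs in the 82 injured-side bins and 18 on the opposite side, with a log2 interval that ended at -0.11. At the lower threshold the 3-day UMIs were 54 and 23 and the 28-day UMIs 0 and 34, with an interval that ended at -1.91.

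At the mirrored position the 3-day UMIs of Npas4 were 11 and 3 and the 28-day UMIs 0 and 7, too few to place the 28-day interval below 0. Other genes of the list were less far apart. Junb, an AP-1 factor, was at 199 CPM on the injured side and 48.1 on the opposite side at 3 days, and at 17.9 and 41.7 at 28 days. Arc, a regulator of synaptic receptor traffic, was at 377 and 173 at 3 days, and at 107 and 121 at 28 days (log2 ratio -0.12, interval -1.21 to 0.75). Egr1, a zinc finger activity gene, was at 298 and 356 at 3 days, with a ratio of -0.22 (-1.13 to 0.51), and at 143 and 281 at 28 days, with a ratio of -0.93 (-1.82 to -0.22). Against the mirrored position the 28-day ratio of Egr1 was -0.46 and its interval, -1.38 to 0.30, included 0. Egr3 was at 159 and 195 at 3 days, with an interval that included 0, and at 107 and 176 at 28 days with a log2 ratio of -0.66 (-1.72 to 0.17). Of these genes, Npas4, Junb and Arc had intervals above 0 at 3 days, and Npas4 and Egr1 had intervals below 0 at 28 days. At the mirrored position none of them had a 28-day interval below 0. Arc stood there at 0.19 (-0.94 to 1.14), while Npas4, Junb, Egr1 and Egr3 had ratios below 0.

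The opposite directions were also seen outside the members. In the other scored bins of the medial dorsal area, which held 2600 injured-side and 4340 opposite-side bins at 3 days and 1733 and 3179 at 28 days, the sum of immediate early genes had log2 ratios of 0.77 (0.73 to 0.82) and -0.52 (-0.60 to -0.44). Those bins did not hold the same tissue on both sides. At 3 days hippocampal genes were at 221 against 482 CPM and layer 6 genes at 167 against 331. At 28 days these 2 lists had log2 ratios of -0.72 and -0.50. In 122 against 261 bins selected on layer 6 genes at 3 days, the ratio was 0.26 (0.05 to 0.48). The 28-day layer 6 set had 16 injured-side bins and a ratio of -0.15 (-0.93 to 0.49). Upper-layer bins in this area numbered 10 and 32 at 3 days, where the list had 65 against 55 UMIs and a ratio of 1.41 (0.87 to 1.95). With 1 injured-side upper-layer bin at 28 days, no ratio is given. Whether the members differed from these bins was not tested.

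**Figure D4:**
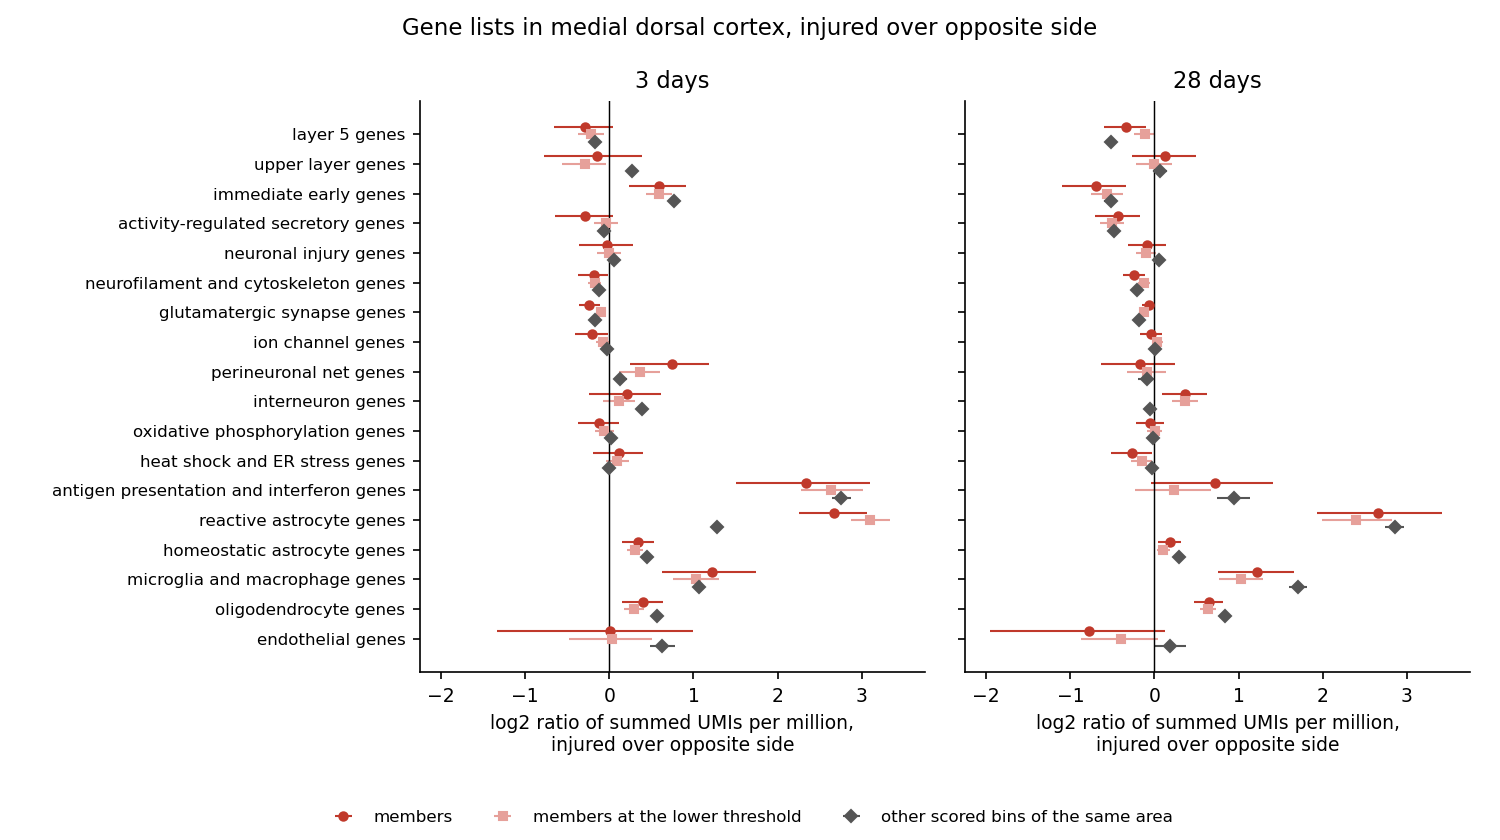
Log2 ratios of summed CPM, injured over opposite side, for 18 gene lists in the medial dorsal cortex of each section, in members (red circles), members at the lower threshold (pale squares) and other scored bins of the area (grey diamonds); bars are exact 95% intervals of counting error. Immediate early genes sit at 0.59 at 3 days and -0.70 at 28 days in the members, while glial and immune lists lie mostly above 0.

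Secretory genes regulated by activity had a lower sum at 28 days, to which Cck gave 44 of 139 UMIs on the injured side and 344 of 765 on the opposite side. The median over the 9 genes past the minimum was -0.22, and the interval of the gene in the middle, -0.91 to 0.38, included 0. The sum was 1244 CPM in injured-side members and 1680 on the opposite side, a ratio of -0.43 (-0.70 to -0.17), against -0.29 (-0.65 to 0.04) at 3 days. The mirrored position gave -0.28 (-0.56 to -0.01) at 28 days. Cck, the neuropeptide cholecystokinin, had 44 UMIs in 82 bins, or 394 CPM, against 344 UMIs, or 755 CPM, a log2 ratio of -0.92 (-1.43 to -0.48), and at the lower threshold -0.89 (-1.13 to -0.65). At 3 days Cck was at 516 and 638, a ratio of -0.28 (-0.95 to 0.28). Bdnf, a neurotrophin, had 2 UMIs on the injured side and 18 on the opposite side at 28 days, with an interval from -4.29 to 0.92. Homer1, a postsynaptic scaffold and not a secreted protein, was at 199 and 397 at 3 days, a ratio of -0.93 (-2.09 to -0.08), and at 233 and 274 at 28 days. The mirrored position gave Homer1 a 3-day ratio of -0.81 with an interval that included 0 (-2.02 to 0.14). Of the secretory genes past the minimum, 0 of 8 were higher and 1 was lower by a log2 ratio of 1 or more at 3 days, and 0 of 9 were higher and 1 lower at 28 days.

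The layer 5 list had sums below 0 in both sections, but the intervals and, at 3 days, the direction varied with the bins compared. It summed to 1490 CPM against 1827 at 3 days, a ratio of -0.29 (-0.66 to 0.05), and to 1406 against 1785 at 28 days, a ratio of -0.34 (-0.60 to -0.10). Both intervals included 0 at the mirrored position, where the sums were -0.34 (-0.74 to 0.03) and -0.21 (-0.47 to 0.05). The lower threshold gave -0.22 (-0.38 to -0.06) and -0.12 (-0.25 to 0.01). In the 5 injured-side bins left by the 98th percentile at 3 days the sum was above 0, at 0.27. Pcp4 is the most abundant gene of the list and was among the lower ones, so the sums depend in large part on it. At 3 days it gave 22 of the list's 75 UMIs on the injured side and 367 of 759 on the opposite side. At 28 days it gave 50 of 157 and 381 of 813. Pcp4 had 22 UMIs against 367 at 3 days, or 437 and 883 CPM, a ratio of -0.99 (-1.71 to -0.40), and 50 against 381 at 28 days, or 448 and 837 CPM, a ratio of -0.89 (-1.36 to -0.47). At the mirrored position Pcp4 stood at -1.10 at 3 days and -0.39 at 28 days. The 28-day interval there, -0.88 to 0.05, included 0, so that value moved with the stretch of the band compared.

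Other genes of the layer did not share one direction. Tshz2 was at 437 CPM on the injured side and 250 on the opposite side at 3 days, a ratio of 0.83 (0.07 to 1.48), and at 394 and 305 at 28 days, a ratio of 0.38 (-0.16 to 0.87). Parm1 was at 179 and 156 at 3 days and at 179 and 173 at 28 days. Hsd11b1, which encodes an enzyme that activates glucocorticoids, had 8 UMIs against 15 at 28 days and 42 against 36 at the lower threshold, where the ratio was 1.44 (0.76 to 2.12). Bcl11b, a transcription factor of subcortical projection neurons, had 2 UMIs against 43 at 3 days, and at the lower threshold 11 against 81, a ratio of -1.20 (-2.31 to -0.34). Of 9 genes past the minimum at 3 days, 1 was higher and 3 lower by a ratio of 1 or more, and the median was 0.26 although the sum was below 0. At the lower threshold sum and median also differed in sign at 28 days, where the median was 0.45. Of 8 genes at 28 days, 1 was higher and 1 lower, with a median of -0.37. Of the layer 4 genes, whose 28-day ratio was 1.79 (1.01 to 2.56), Scnn1a had 7 against 4 UMIs and Rspo1 8 against 9.

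Genes of the neuron's response to axon damage showed no common shift. The sum was 1867 CPM against 1911 at 3 days, with a ratio of -0.03 (-0.36 to 0.28), and 1826 against 1941 at 28 days, a ratio of -0.09 (-0.31 to 0.13). Gap43, a growth cone protein, was at 238 and 378 at 3 days, a ratio of -0.61 (-1.65 to 0.18), and at 125 and 305 at 28 days, a ratio of -1.24 (-2.19 to -0.49). At the mirrored position the 28-day value was -0.45 with an interval that included 0 (-1.44 to 0.37). The 3-day value there was -1.47, with an interval below 0 (-2.53 to -0.65). At the lower threshold the values of Gap43 were -0.63 at 3 days and -0.96 at 28 days. Basp1, a related membrane protein, was at 874 and 934 at 3 days and at 1003 and 1063 at 28 days. Stmn4 was at 412 and 296 at 28 days, a ratio of 0.48 (-0.04 to 0.97). In all, 6 of the 15 genes listed passed the minimum in each section, of which 0 passed a ratio of 1 at 3 days and 1 passed it in each direction at 28 days. The rest had too few UMIs to read.

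Structural and synaptic genes differed by small amounts. Of 10 neurofilament and cytoskeleton genes, 2 were above 0 in each section and 0 passed a ratio of 1, and the sums stood at -0.19 (-0.37 to -0.01) at 3 days and -0.24 (-0.38 to -0.11) at 28 days. Nefl, the light neurofilament subunit, was at 457 against 794 CPM at 3 days, a ratio of -0.77 (-1.48 to -0.19), and at 519 against 733 at 28 days, a ratio of -0.49 (-0.93 to -0.09). The 3-day interval of Nefl included 0 at the mirrored position, with -0.48 (-1.24 to 0.18), and the 28-day interval did so at the lower threshold, with -0.19 (-0.40 to 0.02). Among the 5 injured-side members left at 3 days by the 98th percentile, Nefl reversed to 0.28. Nefh was at 139 and 258 at 3 days and at 161 and 259 at 28 days, and at the lower threshold its ratios were -0.60 (-1.09 to -0.16) and -0.51 (-0.92 to -0.13). The 14 glutamatergic synapse genes summed to -0.24 (-0.36 to -0.11) at 3 days, where 1 was above 0 and the sum reversed to 0.21 at the 98th percentile and was -0.074 with blocks of 3 by 3 bins, and to -0.07 (-0.15 to 0.01) at 28 days, where 7 were. Nrgn, a postsynaptic calmodulin-binding protein, was at 1172 and 1675 at 3 days and at 1504 and 1855 at 28 days. At the mirrored position its ratios were -0.04 (-0.51 to 0.39) at 3 days and -0.25 (-0.51 to -0.005) at 28 days. With blocks of 3 by 3 bins the 3-day ratio of Nrgn reversed to 0.21. Snap25, a protein of transmitter release, was at 5104 and 5628 at 3 days, with a ratio of -0.14 (-0.33 to 0.05), and at 6509 and 7022 at 28 days.

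Of 15 ion channel genes, 0 were higher and 3 lower by a ratio of 1 or more at 3 days and 0 passed it at 28 days, and the sums were -0.21 (-0.41 to -0.02) and -0.04 (-0.17 to 0.09). The 3-day interval of this list included 0 at the mirrored position, at -0.12 (-0.34 to 0.09), and at the lower threshold, at -0.074 (-0.16 to 0.01). The 28-day interval lay below 0 at the mirrored position, at -0.16 (-0.29 to -0.03). Oxidative phosphorylation genes summed to -0.12 (-0.38 to 0.12) and -0.05 (-0.22 to 0.11). Heat shock and ER stress genes summed to 0.11 (-0.20 to 0.40) and -0.27 (-0.51 to -0.03). Perineuronal net genes, which encode the matrix around many interneurons, summed to 0.74 (0.24 to 1.19) at 3 days and -0.18 (-0.63 to 0.24) at 28 days. Their 3-day sum was 0.47 (-0.08 to 0.99) at the mirrored position and 0.36 (0.11 to 0.61) at the lower threshold. Interneuron genes summed to 0.21 (-0.24 to 0.62) and 0.36 (0.09 to 0.62), with Pvalb at 797 and 663 CPM at 28 days. The 28-day interneuron sum at the mirrored position was 0.07 (-0.20 to 0.33) and Pvalb had a ratio of -0.05 (-0.42 to 0.29), while the lower threshold gave 0.37 (0.21 to 0.52) for the sum. Vip, a neuropeptide of another interneuron class, had 0 UMIs in the injured-side bins at 3 days and 31 on the opposite side, with a log2 interval that reached 0.06 and so included 0. At the lower threshold it had 0 against 48, with an interval that ended at -2.02. At the mirrored position Vip had 0 against 4 UMIs, so few that no fold is given.

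**Figure D5:**
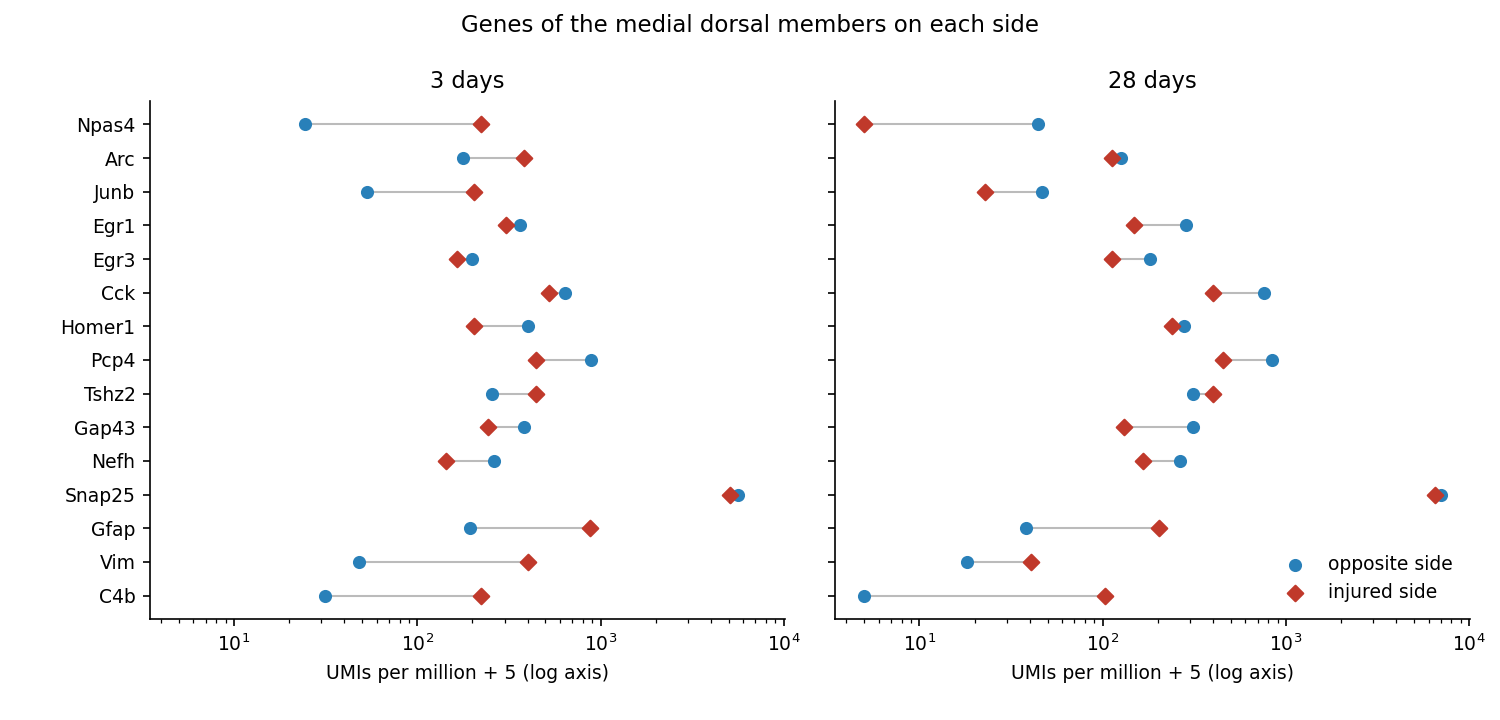
CPM, with 5 added and on a log axis, of 15 genes in the summed medial dorsal members of the injured side (red diamonds) and the opposite side (blue circles) of each section. Npas4 is at 218 and 19.3 on the injured and opposite side at 3 days and at 0 and 39.5 at 28 days, and Gfap is higher on the injured side in both sections.

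Genes of glia were present in the same bins and moved with the side. Of the 9 reactive astrocyte genes, 3 passed the minimum at 3 days and 1 at 28 days, and each of these was higher on the injured side by a ratio of 1 or more. The minimum counts both sides, so a gene with few opposite-side UMIs could pass only through its injured-side ones. That count therefore only describes which genes passed. The list summed to 1847 CPM in the injured-side members and 291 on the opposite side at 3 days, with a ratio of 2.67 (2.26 to 3.07), and to 376 and 59.3 at 28 days, a ratio of 2.66 (1.93 to 3.42). Gfap, the intermediate filament of astrocytes, was at 874 and 188 at 3 days and at 197 and 32.9 at 28 days. Vim, an intermediate filament of reactive astrocytes, was at 397 and 43.3 at 3 days, a ratio of 3.19 (2.20 to 4.20), and had 4 UMIs against 6 at 28 days. C4b, a complement component, had 11 UMIs on each side at 3 days, or 218 and 26.5 CPM. At 28 days C4b had 11 UMIs on the injured side and 0 on the opposite side, with a log2 interval that began at 3.36, or at 2.94 at the mirrored position. The mirrored position gave sums of 2.25 (1.74 to 2.79) and 2.35 (1.61 to 3.14). In the other scored bins of the area the sums stood at 1.28 (1.23 to 1.33) and 2.86 (2.74 to 2.97).

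Genes of antigen presentation and interferon response had the larger ratio in the 3-day section, and whether the sections differed was not tested. They summed to 23 UMIs, or 457 CPM, against 38 UMIs, or 91.5 CPM, a log2 ratio of 2.33 (1.51 to 3.10), and at 28 days to 215 against 132 CPM, a ratio of 0.72 (-0.04 to 1.41). The mirrored position left 5 UMIs on the opposite side at 3 days and gave 3.43 (2.11 to 5.29), and 0.60 (-0.19 to 1.31) for the later section. Ifit3, an interferon-induced gene, had 7 UMIs against 3 at 3 days, and 46 against 6 at the lower threshold, a ratio of 4.47 (3.33 to 6.08). In the members, 0 of the 11 genes passed the minimum at 3 days. At the lower threshold 5 genes passed it and all 5 were higher by a ratio of 1 or more. Genes with few opposite-side UMIs, such as Ifit3, passed it through the injured side, so this count only describes which genes passed.

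The remaining cell type lists were given for the same bins, and their part in the neuronal values was not tested. Microglia and macrophage genes were at 715 CPM against 311 at 3 days and at 591 against 255 at 28 days, ratios of 1.22 (0.63 to 1.75) and 1.22 (0.76 to 1.66). In each section 3 of 10 genes passed the minimum and all 3 were above 0, with C1qa, a complement gene, at 199 and 67.4 CPM at 3 days and at 107 and 39.5 at 28 days. The 28-day ratio of C1qa reversed to -0.090 at the 98th percentile. Oligodendrocyte genes were at 3198 CPM against 2431 and at 3536 against 2264, ratios of 0.40 (0.15 to 0.64) and 0.64 (0.47 to 0.81). Mbp, a myelin protein, was at 834 and 905 at 3 days and at 1316 and 837 at 28 days. Homeostatic astrocyte genes had ratios of 0.35 (0.15 to 0.54) and 0.18 (0.04 to 0.32). Endothelial genes summed to 0.01 (-1.33 to 0.99) and -0.78 (-1.96 to 0.12), with a 28-day value at the mirrored position of -0.98 (-2.17 to -0.07), and the 5 fibroblast genes had 0 UMIs on the injured side and 5 and 8 on the opposite side. Upper-layer genes summed to -0.15 (-0.77 to 0.39) and 0.13 (-0.27 to 0.49). Genes of other brain regions were present as well. Striatal genes were at 238 CPM against 86.7 at 3 days, a ratio of 1.5 (0.38 to 2.44), with 11 of the 12 injured-side UMIs from Ppp1r1b, a signalling gene of striatal neurons. They had 5 against 45 UMIs in the later section, a ratio of -1.02 (-2.83 to 0.19). The mirrored position gave striatal genes 1.33 (0.05 to 2.62) at 3 days, and the lower threshold 0.86 (0.26 to 1.42). Thalamic genes had ratios of 0.34 (-1.29 to 1.48) and -0.22 (-1.60 to 0.82), which at the lower threshold were 0.85 (0.24 to 1.42) and 0.63 (0.07 to 1.16). Hippocampal genes had ratios of 0.47 (-0.79 to 1.43) and 0.12 (-0.67 to 0.81).

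Ranked by ratio among genes with at least 100 UMIs in the medial dorsal members, the 10 highest at 3 days were Gfap, Apod, Chgb, mt-Nd4l, Tjp1, Atp1b2, Dbndd2, Kif3c, mt-Co1 and Prkar1b. Apod, a lipocalin made by glia, was at 794 and 185 CPM, a ratio of 2.11 (1.51 to 2.67), but its ratio was -0.10 among the members left by the 98th percentile. The 10 lowest were Arap2, Sec11c, Magi1, Cacnb1, Sema7a, Acsl3, Dync1li2, Clstn3, Dgkz and Hcfc1r1, each on 7 or fewer injured-side UMIs. At 28 days the highest were Igfbp5, Ccdc136, Nrip3, Rims3, Rhob, Ap1ar, Apoe, Nrep, Cryab and Plekhb1. The lowest were Gap43, Gda, Plcb1, Dtnbp1, Ankrd13c, Hpcal4, Ngef, Pgk1, Vxn and Egr1.

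Igfbp5 and Apoe had intervals above 0 at 28 days and intervals that included 0 at 3 days, and the difference between the sections was not tested. Igfbp5, a binding protein of insulin-like growth factors, was at 600 CPM against 228 at 28 days, a ratio of 1.40 (0.93 to 1.85), and at 119 against 173 at 3 days, a ratio of -0.43 (-2.03 to 0.65). Apoe, the main lipid carrier of the brain, was at 3286 against 1789 at 28 days, a ratio of 0.88 (0.69 to 1.06), and at 1768 against 1598 at 3 days, a ratio of 0.15 (-0.19 to 0.47). The mirrored position gave 28-day ratios of 1.27 and 0.85, and there the 3-day interval of Apoe also lay above 0, at 0.41 (0.02 to 0.79).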

How the data were processed

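Per the labels and file headers, the authors made the deposited UMI counts with Space Ranger 4.0.1 from perfusion-fixed, paraffin-embedded sections, and mm10 is named in the submitters' processing notes. Counts per 16 µm bin were used as deposited, with no correction for spread of RNA between bins. The members and gene lists were chosen with earlier results of these data known, and the patches, the medial dorsal comparison and the lower threshold after the map of members was seen. Counts of members were summed per side and scaled to CPM. Other scored bins of the dorsal and medial dorsal areas left out bins rich in hippocampal, thalamic and striatal genes together. The limit was the 90th percentile of that share over scored bins of the opposite side. Those of the medial dorsal area also left out bins picked on upper-layer or layer 6 genes. Ratios are log2 of injured over opposite side with 0.5 UMI added, and intervals are exact (conditional binomial for ratios, Clopper-Pearson for shares). The genes of the rule and 6 lesion zone genes were left out of the lists, and 4 listed symbols were not in the files. The zone held kept bins whose mean share of those 6 genes over 21 by 21 bins passed the 99th percentile on the opposite side, in patches of at least 400 bins. The genes named are the 10 highest and 10 lowest ratios (at least 200 UMIs, or 100 in the medial dorsal members), up to 6 genes of each list and the 10 highest in members over other dorsal bins. Scnn1a and Rspo1 had fewer than 20 UMIs over all members of each section and were chosen after their values were seen. A few genes of the rule are not reported here. With 1 section per time point no test was run. Scripts were tested on simulated data. Python 3.11.15, NumPy 2.4.6, SciPy 1.17.1 and, for TMM factors, edgeR 4.0.16 were used. The alternatives are given in the closing section.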

Additional observations from a re-analysis of the deposited data

Results flagged for a closer look

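In the medial dorsal members, the summed immediate early genes were above the opposite side at 3 days and below it at 28 days. The log2 ratio at 28 days minus that at 3 days was -1.29. It was marked because the sections moved in opposite directions, with both intervals of counting error clear of 0. With 1 section per time point the difference was not tested, and time, animal and section cannot be told apart.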

How the results depend on the processing

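Of 15 alternatives, 1, the lower threshold, was added after seeing the data, as was the comparison of medial dorsal members itself. Among the summary values, 348 stayed within their limits, 61 moved and 1 reversed. Among values of single genes, 1091 stayed, 44 moved and 4 reversed. Alternatives that could not alter a value are counted among those that stayed. Leaving out members rich in genes of other regions removed no bin. The midline groups led by habenula genes passed that filter too, so it does not show which tissue the members held. The 98th percentile left 5 injured-side members at 3 days. There, 3851 genes over all members were higher by a log2 ratio of 1 and 354 lower, the log2 ratio of shares was -4.39 and the median of neuronal injury genes 1.26. In the medial dorsal members it gave sums of 0.27 for layer 5, 1.06 for immediate early, -0.72 for secretory and 0.21 for glutamatergic synapse genes (reversed), and reversed Apod to -0.10, Nefl to 0.28 and, at 28 days, C1qa to -0.090. A 3 by 3 block gave share ratios of -1.83 at 3 days and 0.38 at 28 days and, in the 3-day medial dorsal members, 214 genes higher and 318 lower, sums of -0.074 for synapse and 3.21 for reactive astrocyte genes, and Nrgn reversed to 0.21. A minimum of 20 Slc17a7 UMIs gave a 3-day share ratio of -3.06. Scoring on Fezf2 alone gave share ratios of -0.31 and -1.24, 659 genes higher and 483 lower over all members at 3 days, 404 lower at 28 days with a layer 5 median of -0.13, 271 and 307 in the medial dorsal members at 3 days, and 371 and 476 at 28 days with a synapse sum of -0.31. Limiting the opposite side to the captured span gave 778 genes higher at 3 days. The mirrored position gave 117 higher and 159 lower at 3 days, share ratios of -3.84 and -2.32 (with the scored bins limited on the opposite side alone), and a reactive astrocyte sum of 2.25. A pseudocount of 1 gave 387 lower over all members at 3 days and 316 in the medial dorsal members. With no minimum per gene, 5339 were higher over all members at 3 days, 1580 higher and 1596 lower at 28 days, and in the medial dorsal members 3263 and 1226, then 1831 and 1163. A minimum of 100 UMIs gave 333 and 494, then 30 and 35, over all members, and 4 and 31, then 3 and 7, in the medial dorsal members. TMM scaling gave 224 higher and a synapse sum of -0.41 in the 3-day medial dorsal members. UMIs per bin gave 148 higher over all members at 28 days and a medial dorsal synapse sum of 0.029. The lower threshold gave a 3-day share ratio of -1.23, 742 higher and 748 lower over all members at 3 days, 155 lower at 28 days, and in the 3-day medial dorsal members 255 lower with sums of -0.10 for synapse and 3.10 for reactive astrocyte genes. The cause of these changes was not tested. The sum of immediate early genes kept its direction in both sections under every alternative run, but several of these could not change it. The captured span and the genes of other regions left the same medial dorsal bins, and the minimum per gene does not enter a sum. No paired analysis was possible because each time point has 1 section. The injured-side medial dorsal members held 50349 UMIs at 3 days, so a gene at 20 CPM there rests on about 1 UMI.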
